A study of Mus musculus with 8 samples.

Results

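The nuclear-encoded subunits of the mitochondrial respiratory chain and ATP synthase were examined in pancreatic islets of Wfs1KO and WT mice. Members were chosen by gene symbol (the Nduf families a, b, c, s and v, Sdha to Sdhd, Uqcr, the numbered Cox subunit families, Atp5, Cyc1 and Cycs), which gave 87 of the 24537 genes counted. Of these, 36 belonged to complex I, 4 to complex II, 9 to complex III, 20 to complex IV and 17 to complex V, and Cycs encodes the carrier cytochrome c. Ndufa4 and its relative Ndufa4l2 were placed with complex IV, where the Ndufa4 protein is found, and Atp5s and Atp5sl entered complex V by symbol alone. Cox7a2l was counted with complex IV. The 13 subunits encoded in mitochondrial DNA were not analysed here. Polyadenylated RNA was sequenced from 4 Wfs1KO and 4 WT islet samples of male mice aged 12 weeks, 1 library per sample. Wolframin, the product of Wfs1, sits in the membrane of the endoplasmic reticulum, and its loss in people causes Wolfram syndrome. The labels give neither the knockout allele nor what the replicate numbers mark, so the p-values measure the spread between these samples, which may be technical.

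Complexes I to IV pass electrons from NADH and succinate to oxygen and, all but complex II, pump protons across the inner mitochondrial membrane, and complex V, the ATP synthase, lets the protons back to make ATP. In beta cells the ATP made in this way from glucose closes a potassium channel, which depolarises the cell and starts insulin release. Complexes I, III, IV and V combine subunits from both genomes, and complex II is made from nuclear genes alone. Several subunits of complexes IV and V are encoded by more than 1 nuclear gene, with a widely expressed form and forms known from muscle, testis or lung.

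Exon counts ran from 16395855 to 27057617 in Wfs1KO libraries and from 15810830 to 21552731 in WT libraries. Wfs1 stood at 107 ± 11.8 CPM in Wfs1KO islets and 179 ± 15.6 CPM in WT islets (SD, n = 4 each; CPM are counts scaled to a common library size by edgeR's TMM), so RNA of the targeted gene was still counted. The share of all tags counted in exons was 62.2%, 66.9%, 76.5% and 76.2% in Wfs1KO replicates 1 to 4 and 65.3%, 60.0%, 73.3% and 71.9% in WT replicates 1 to 4. Replicates 1 and 2 were thus lower than replicates 3 and 4 in both genotypes, and the first principal component of all genes (37.9% of variance) parted the same libraries, so the counts of called subunits and the complex sums are also given for these pairs of replicates. Islet hormone genes were abundant in every library, with summed levels of 141711 to 171536 CPM in Wfs1KO islets and 196718 to 245169 CPM in WT islets. Endothelial markers summed to 676 to 794 CPM in Wfs1KO islets and 499 to 573 CPM in WT islets, and all 8 rose. Acinar markers, from the digestive tissue around islets, ran from 9683 to 66935 CPM in Wfs1KO islets and from 31463 to 70584 CPM in WT islets, and 0 of 11 tested were called by edgeR, with 0 at an unadjusted p under 0.05 and a median log2 fold change of -0.43. Of the 11, 7 fell in replicates 1 and 2 alone. In bulk tissue, fewer cells of a type and less RNA per cell cannot be told apart.

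The ring of c subunits that turns in the membrane as protons pass is made from Atp5g1, Atp5g2 and Atp5g3, of which Atp5g1 is among the genes that rose. The 3 precursor proteins have 136, 146 and 141 residues and end in the same 78 residues, a stretch that holds the whole mature subunit. Reads from this stretch can be assigned to a gene by base differences alone, so the coding sequences of the shared residues are shown, with capitals at the 63 of 234 positions where the 3 genes are not all alike (from the GENCODE M21 annotation and transcripts, GRCm38).
Atp5g1 (chr11:96072793-96075631, minus strand): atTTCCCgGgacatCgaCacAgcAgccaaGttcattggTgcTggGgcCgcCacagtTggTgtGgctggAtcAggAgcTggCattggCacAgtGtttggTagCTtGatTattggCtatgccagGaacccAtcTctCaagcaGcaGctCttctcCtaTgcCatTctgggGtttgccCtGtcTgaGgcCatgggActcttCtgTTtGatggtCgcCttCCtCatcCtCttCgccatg
Atp5g2 (chr15:102662868-102671047, minus strand): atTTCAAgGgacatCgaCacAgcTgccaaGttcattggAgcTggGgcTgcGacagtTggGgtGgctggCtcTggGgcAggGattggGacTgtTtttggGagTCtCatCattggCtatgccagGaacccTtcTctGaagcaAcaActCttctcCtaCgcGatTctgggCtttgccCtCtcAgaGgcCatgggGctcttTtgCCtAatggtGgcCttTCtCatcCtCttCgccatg
Atp5g3 (chr2:73908447-73911326, minus strand): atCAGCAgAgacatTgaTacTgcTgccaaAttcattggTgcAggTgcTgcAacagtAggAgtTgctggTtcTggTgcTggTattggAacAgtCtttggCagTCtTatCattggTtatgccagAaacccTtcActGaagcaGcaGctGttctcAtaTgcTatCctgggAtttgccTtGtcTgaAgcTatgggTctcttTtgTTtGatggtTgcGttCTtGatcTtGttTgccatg
Over these bases Atp5g1 and Atp5g2 were 84.6% identical, with a longest identical run of 20 bases. Atp5g3 was 78.6% identical to Atp5g1 and 77.4% identical to Atp5g2. The larger limit is sequence shared with genes elsewhere: 66.0% of the 50-base words of the Atp5g1 transcript and 87.4% of those of Atp5g2 also occur in other annotated genes, against 0 for Atp5g3. How reads that fit several places were counted is not stated, so levels of Atp5g1 and Atp5g2 are uncertain. Of the 86 members found in the annotation, 49 shared no 50-base word with another gene and 14 shared over 20%.

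Per kilobase of exon, subunit RNA spanned a wide range of levels. In WT islets the highest were Cox8a at 221 ± 8.83 CPM per kb and Atp5b, the catalytic beta subunit of the ATP synthase, at 219 ± 13.2 CPM per kb (SD, n = 4). Atp5a1, its partner in the catalytic head, came next at 214 ± 18.3 CPM per kb, and these 3 levels lie within each other's spread. Cox4i1 followed at 187 ± 11.2 CPM per kb. In the other complexes the highest were Ndufa6 in complex I at 128 ± 5.77, Sdha, the flavoprotein of succinate dehydrogenase, at 105 ± 4.89, and Uqcrh, the hinge protein of complex III, at 92.4 ± 4.58 CPM per kb. The lowest tested members were Cycs at 0.311, Cox4i2 at 1.28 and Atp5g2 at 1.35 CPM per kb. Cycs is an essential carrier, yet it is listed at 12 to 26 reads per library. Of its 50-base words 28.5% occur in 76 other annotated genes. The part of this shared sequence in the low count was not tested, and the counts of Cycs are not read here as its level. Cox6b2, Cox7b2, Cox8b and Cox8c, forms known from testis or muscle, had at most 9 reads in any library and did not pass the count filter.

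Over all 8 libraries, RNA of 6 subunits rose in Wfs1KO islets and none fell. The 6 were Cox6a2, Uqcrq, Atp5g1, Ndufa1, Cox7b and Atp5f1, from complexes I, III, IV and V. The 6 were 7.23% of the 83 members tested, against 10.4% of all tested genes that rose and 8.49% that fell (edgeR's quasi-likelihood test, adjusted p under 0.05), so the share of members called was not above the background. The median log2 fold change of Wfs1KO over WT was 0.11 among members and 0.01 among all tested genes, and 80.7% of members against 52.6% of all tested genes lay above 0. At an unadjusted p under 0.05 there were 19 members, 1 of them lower, which is 22.9% of members against 31.1% of all tested genes. Every Wfs1KO library exceeded every WT library for 7 members, and none showed the opposite, against 12.3% and 10.3% of all tested genes parted upward and downward.

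**Figure D1:**
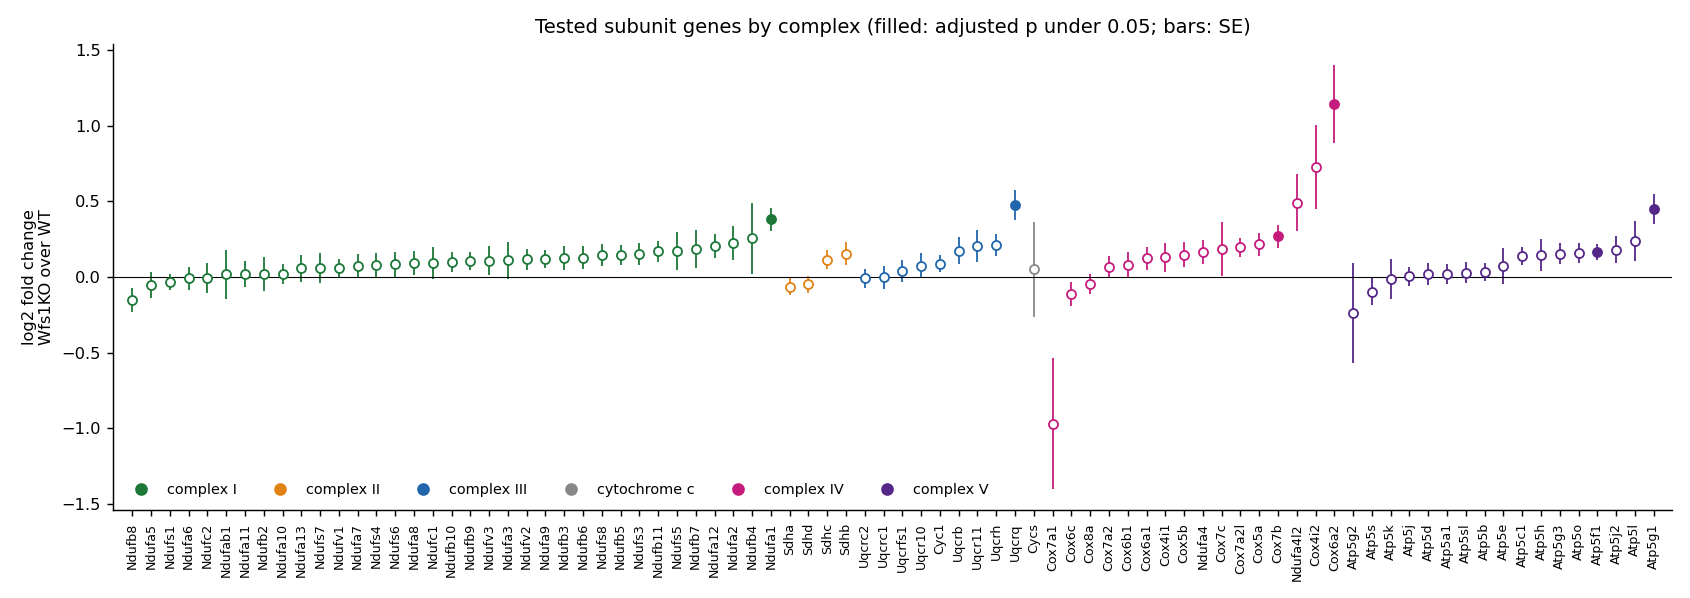
Log2 fold change of Wfs1KO over WT (y axis) for 82 of the 83 tested subunit genes, grouped by complex and ordered by value (x axis); points are edgeR estimates from 4 libraries per genotype, bars are standard errors, and filled points have an adjusted p under 0.05. Most points lie a little above 0, 6 are filled, and Cox6a2 at 1.14 and Cox7a1 at -0.97 are the extremes.

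The largest rise was that of Cox6a2, the form of cytochrome oxidase subunit 6a known from heart and skeletal muscle. It had 14.4, 20.9, 13.6 and 16.8 CPM in Wfs1KO replicates 1 to 4, against 5.83, 5.60, 6.28 and 11.7 CPM in WT replicates 1 to 4. The groups did not overlap, and WT replicate 4 stood well above the other WT libraries. The log2 fold change was 1.14 ± 0.26 (SE; edgeR adjusted p = 0.0152), a ratio of means of 2.23, and with WT replicate 3 left out it no longer passed (adjusted p = 0.0527). The Cox6a2 exons overlap 70 bases of Itgad on the other strand, and counts were made without a strand option.

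Uqcrq, a small subunit of complex III next to cytochrome b, had 72.5, 81.2, 61.2 and 57.5 CPM in Wfs1KO replicates 1 to 4, against 48.1, 48.8, 45.7 and 53.3 CPM in WT replicates 1 to 4. All Wfs1KO libraries were above all WT libraries, and Wfs1KO replicates 1 and 2 were the highest (log2 fold change 0.48 ± 0.10 SE, edgeR adjusted p = 0.0059). Ndufa1, an X-linked accessory subunit of complex I needed for its assembly, had 36.0, 42.9, 35.3 and 35.4 CPM in Wfs1KO islets, against 29.5, 26.7, 27.2 and 31.1 CPM in WT islets. Its groups were also apart (0.38 ± 0.08 SE, edgeR adjusted p = 0.0032). Atp5g1 had 9.91, 8.81, 9.52 and 8.26 CPM in Wfs1KO islets, against 6.88, 6.41, 6.62 and 6.82 CPM in WT islets, again without overlap (0.45 ± 0.10 SE, edgeR adjusted p = 0.0063).

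The remaining rises were smaller. Cox7b, a small X-linked subunit of complex IV, had 43.9, 48.1, 39.2 and 39.8 CPM in Wfs1KO islets, against 37.9, 37.1, 32.5 and 34.3 CPM in WT islets. The log2 fold change was 0.27 ± 0.08 (SE; edgeR adjusted p = 0.0220), and the call was lost when any 1 of Wfs1KO replicates 1 and 2 and WT replicates 3 and 4 was left out (0.0504 to 0.0683). Atp5f1, subunit b of the stator stalk of the ATP synthase, had 96.6 to 104 CPM in Wfs1KO islets and 85.4 to 95.4 CPM in WT islets (0.16 ± 0.05 SE, edgeR adjusted p = 0.0469). It no longer passed when any library except WT replicate 4 was left out (0.0598 to 0.138) or when the replicate number was a block (0.0737), and its exons overlap 540 bases of genes on the other strand. With the block, 2 members just outside the threshold were called. These were Cox7a2l, a factor that joins complexes III and IV into supercomplexes, with a log2 fold change of 0.20 (edgeR adjusted p = 0.0513, and 0.0451 with the block), and Uqcrh with 0.21 (0.0519, and 0.0406 with the block).

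**Figure D2:**
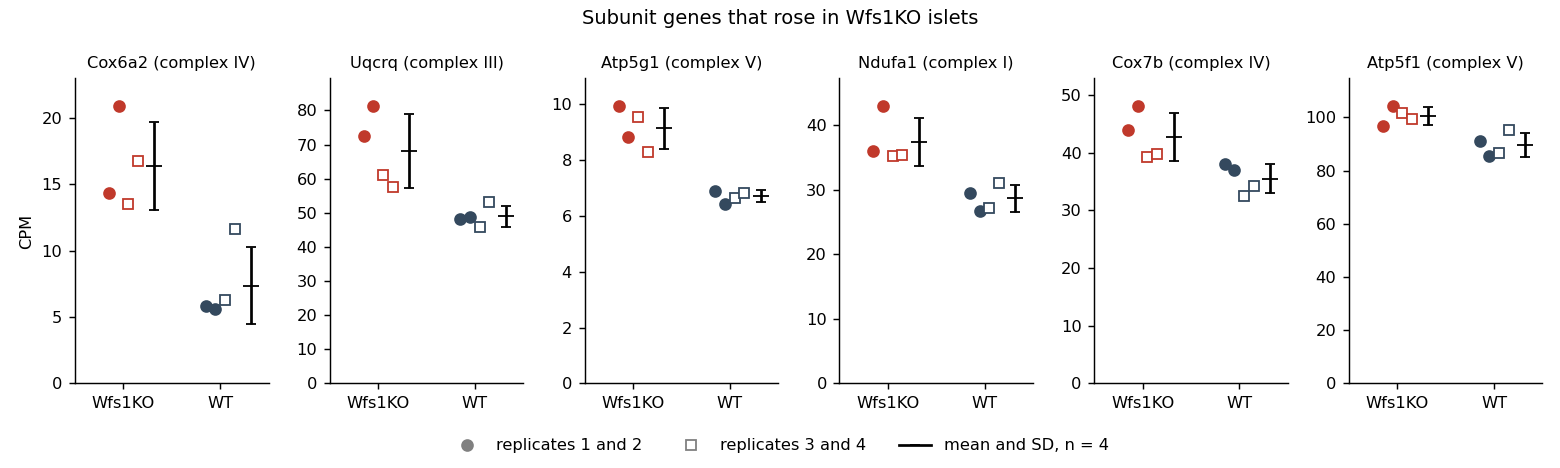
TMM-scaled CPM (y axes, from 0) in each library for the 6 subunit genes that rose, with Wfs1KO left of WT; filled circles are replicates 1 and 2, open squares replicates 3 and 4, and the bars give mean and SD (n = 4). The genotypes do not overlap in any of the 6 panels, and for Uqcrq the Wfs1KO circles (72.5 and 81.2 CPM) lie above the Wfs1KO squares (61.2 and 57.5 CPM).

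In the authors' deposited table, 8 of the members had an adjusted p under 0.05, all higher in Wfs1KO, against 6.84% of all its genes that were higher and 6.42% that were lower. They were the 6 above, Cox7a2l (log2 fold change 0.18, adjusted p = 0.0259 in the authors' deposited table) and Uqcrh (0.20, 0.0415 in the authors' deposited table). In the same authors' deposited table Cox6a2 stood at 0.87.

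The catalytic core subunits did not pass the test over all libraries. Of the 7 core subunits of complex I, which carry the electron path from NADH, 0 were called by edgeR and 1 had an unadjusted p under 0.05. Of the 29 accessory subunits 1 rose, or 3.45%, and 4 had an unadjusted p under 0.05. Of all tested genes 10.4% rose and 8.49% fell, so these counts do not set core subunits apart from accessory ones. Ndufs1 averaged 82.8 ± 2.31 CPM in Wfs1KO islets and 84.7 ± 3.10 CPM in WT islets (SD, n = 4 each). Ndufv1 averaged 71.6 ± 3.74 CPM in Wfs1KO islets and 68.7 ± 3.53 CPM in WT islets. Log2 fold changes over the 7 had a median of 0.06, against 0.10 for the 29 accessory subunits. In complex II, Sdha averaged 285 ± 7.84 CPM in Wfs1KO islets and 297 ± 13.9 CPM in WT islets, and Sdhb, the iron-sulfur subunit, 53.1 ± 5.77 CPM in Wfs1KO islets and 47.7 ± 2.54 CPM in WT islets. In complex III, log2 fold changes were 0.09 for Cyc1, 0.04 for the Rieske protein Uqcrfs1, and -0.00 and -0.01 for the structural proteins Uqcrc1 and Uqcrc2. In the ATP synthase, Atp5a1 averaged 526 ± 9.58 CPM in Wfs1KO islets and 518 ± 44.3 CPM in WT islets, and Atp5b 418 ± 5.78 CPM in Wfs1KO islets and 409 ± 24.7 CPM in WT islets. The lowest log2 fold change in complex I was that of Ndufb8 at -0.15 (edgeR adjusted p = 0.221).

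Where a subunit is made from more than 1 gene, the share of each gene was compared per kilobase, a measure that does not depend on library scaling. Cox6a2 made up 12.7% ± 2.0 of Cox6a RNA in Wfs1KO islets and 6.55% ± 2.02 in WT islets (SD, n = 4 each), with shares of 11.1%, 14.1%, 10.9% and 14.8% in Wfs1KO replicates 1 to 4 against 5.35%, 5.35%, 5.95% and 9.55% in WT replicates 1 to 4. Cox4i2, the form of subunit 4 known from lung, made up 1.04% ± 0.17 of Cox4i RNA in Wfs1KO islets and 0.68% ± 0.11 in WT islets. Its share rests on 11 to 51 Cox4i2 reads per library. Atp5g1 made up 6.67% ± 0.41 of c-subunit RNA as counted in Wfs1KO islets and 5.52% ± 0.40 in WT islets. The sequence that Atp5g1 and Atp5g2 share with other genes, given above, leaves the size of this share uncertain. In each of these 3 families the groups did not overlap (two-sided exact permutation test over 8 libraries, p = 0.0286, the smallest that permuting all 8 libraries can give, and 0.0476 adjusted over the 5 families tested). Permuting only within the 4 pairs of same-numbered libraries gave an exact p of 0.125 for each of the 3, the smallest it can give, so with the pairing kept no share could pass 0.05. Cox7a1, the muscle form of subunit 7a, made up 1.67% ± 0.73 in Wfs1KO islets and 3.50% ± 0.98 in WT islets (exact permutation p = 0.0571, adjusted 0.0714), on 3 to 20 reads per library. Ndufa4l2 made up 3.85% ± 0.92 of Ndufa4 and Ndufa4l2 together in Wfs1KO islets and 3.11% ± 0.38 in WT islets (exact permutation p = 0.229). Cox6b2 and Cox8b stayed at or below 0.502% of their families in every library, on too few reads to test.

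**Figure D3:**
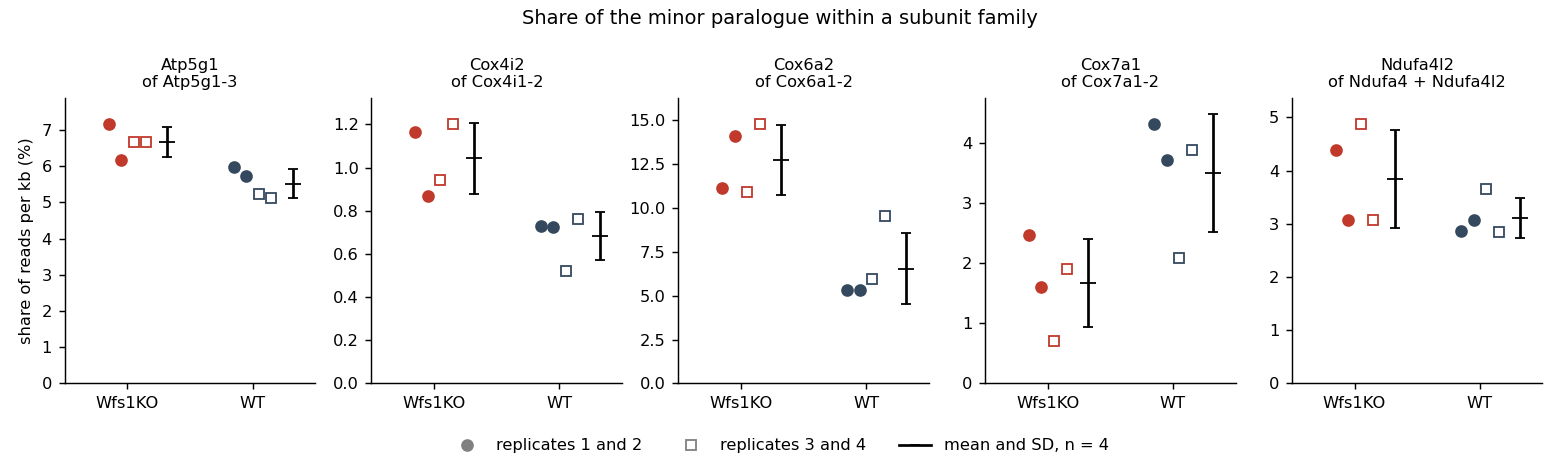
Share of the minor gene within a subunit family (y axes, percent of CPM per kb, from 0) in each library, with Wfs1KO left of WT; filled circles are replicates 1 and 2, open squares replicates 3 and 4, and the bars give mean and SD (n = 4). The genotypes are apart for Atp5g1, Cox4i2 and Cox6a2 and overlap for Cox7a1 and Ndufa4l2.

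Cox4i2 and Ndufa4l2 are known in mouse brain as genes of pericytes and smooth muscle, the cells that wrap small vessels, so markers of such cells are given beside them. Cox4i2 had 1.79, 1.55, 1.27 and 1.53 CPM in Wfs1KO islets, against 0.946, 0.924, 0.743 and 1.08 CPM in WT islets, and did not pass the test (log2 fold change 0.73, edgeR adjusted p = 0.0851). Ndufa4l2, a hypoxia-induced relative of Ndufa4, had 4.97, 4.06, 5.71 and 3.27 CPM in Wfs1KO islets, against 2.89, 2.89, 3.71 and 3.34 CPM in WT islets (0.49, edgeR adjusted p = 0.0888). Of 7 stellate cell and pericyte markers 3 rose and 0 fell, and their sum was 310 to 364 CPM in Wfs1KO islets and 179 to 268 CPM in WT islets. Most of that sum was the pericyte marker Rgs5, which averaged 219 ± 12.9 CPM in Wfs1KO islets and 135 ± 10.5 CPM in WT islets. The collagen genes Col1a1 (log2 fold change -0.16) and Col3a1 (-0.05) lay below 0, and in replicates 3 and 4 the median of the 7 was -0.28, with 4 below 0. The part of these cells in the values of Cox4i2 and Ndufa4l2 was not tested.

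More subunits rose in replicates 1 and 2 than over all libraries. Between the 2 Wfs1KO and 2 WT libraries with these numbers, 21 of 83 tested members rose and none fell, which is 25.3% of members risen against 9.47% of all genes tested there, of which 8.51% fell (edgeR, adjusted p under 0.05). The median log2 fold change was 0.20, and 89.2% of members lay above 0 against 50.9% of all genes. Between replicates 3 and 4, 0 of 82 tested members rose, against a background of 6.35%, and 2 fell, against 5.81%, with a median of -0.04 and 15 members at an unadjusted p under 0.05, 10 of them lower. The 21 came from every complex: 6 from complex I, 1 from complex II, 3 from complex III, 6 from complex IV and 5 from complex V. They included 5 of the 6 genes called over all libraries, all but Atp5f1. Of the 21, 10 lay below 0 in replicates 3 and 4, against 50 of all 82 members tested there. Among all genes tested in replicates 3 and 4, 49.5% lay above 0. Wfs1KO replicate 2 was the highest of the 8 libraries for 58 of the 83 members, and without it 2 members rose in replicates 1 and 2. Without 1 library, the number fallen in replicates 3 and 4 was 7 without Wfs1KO replicate 3 and 0 without WT replicate 3 or WT replicate 4. With DESeq2, 7 of 83 members rose in replicates 1 and 2, which is 8.43% against 5.95% of all genes given an adjusted p. In replicates 3 and 4, 1 of 79 members fell by DESeq2, which is 1.27% against 3.93%.

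Markers of other cell types moved in the same libraries. In replicates 1 and 2, 7 of 7 stellate cell and pericyte markers rose (median log2 fold change 0.75), as did 8 of 8 endothelial markers (0.54). There 1 of 6 macrophage markers (median 0.63) and 1 of 5 erythroid markers (median 0.74) rose, and 7 of 11 acinar markers fell (median -0.44). In replicates 3 and 4, 3 of 7 stellate cell and pericyte markers rose (median -0.28), as did 7 of 8 endothelial markers (0.47). None of the macrophage (median 0.02, 2 at an unadjusted p under 0.05), erythroid (0.08, 0) and acinar markers (-0.37, 0) was called there by edgeR. The part of these cells in the subunit values was not tested.

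By complex, the median log2 fold changes in replicates 1 and 2 were 0.21 for complex I, 0.09 for complex II, 0.18 for complex III, 0.26 for complex IV and 0.15 for complex V. The same medians in replicates 3 and 4 were -0.06 for complex I, -0.05 for complex II, 0.04 for complex III, 0.00 for complex IV and -0.04 for complex V. In summed CPM, complex I had 1580, 1762, 1502 and 1433 in Wfs1KO replicates 1 to 4, against 1435, 1446, 1502 and 1581 in WT replicates 1 to 4. Wfs1KO replicate 2 was the highest library and Wfs1KO replicate 4 the lowest, so the genotypes overlapped. Complex IV had 856, 959, 796 and 761 CPM in Wfs1KO islets, against 776, 757, 759 and 803 CPM in WT islets, with the same order of the Wfs1KO libraries. The complex IV sum includes Cox7a2l, which averaged 160 CPM in Wfs1KO islets and 139 CPM in WT islets. Complex V had 1687, 1758, 1674 and 1617 CPM in Wfs1KO islets, against 1577, 1501, 1660 and 1713 CPM in WT islets. Complex III ranged from 491 to 560 CPM in Wfs1KO islets and from 454 to 497 CPM in WT islets, and complex II from 497 to 525 CPM in Wfs1KO islets and from 481 to 534 CPM in WT islets. In replicates 1 and 2 the log2 ratio of summed levels was 0.04 for complex II and 0.16 to 0.24 for the other 4. In replicates 3 and 4 this ratio was -0.07 for complex I, -0.07 for complex II and 0.02 for complex III. It was -0.01 for complex IV and -0.04 for complex V there. Sdha made up 55.8% of the complex II sum in Wfs1KO islets and 57.7% in WT islets, so the sum largely follows that gene. The log2 fold changes of single genes in these libraries were -0.06 for Sdha, 0.28 for Sdhb, 0.21 for Sdhc and -0.03 for Sdhd.

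**Figure D4:**
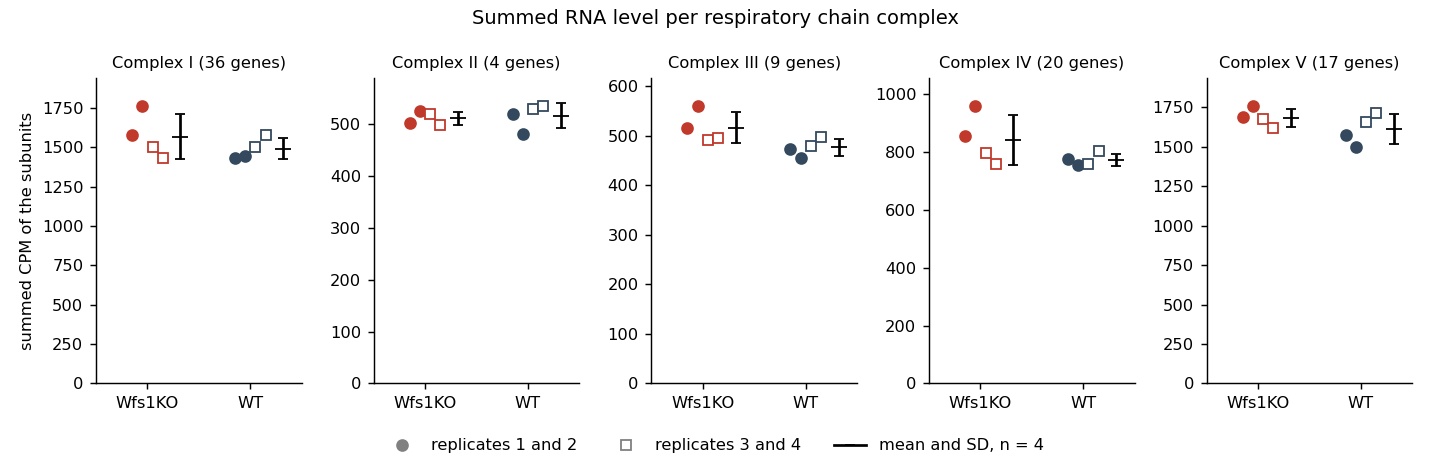
Summed TMM-scaled CPM of all subunit genes of each complex (y axes, from 0) in each library, with Wfs1KO left of WT; filled circles are replicates 1 and 2, open squares replicates 3 and 4, and the bars give mean and SD (n = 4). In complexes I, III, IV and V the Wfs1KO circles lie above both WT circles. In complexes I and II the Wfs1KO squares lie below both WT squares, in complex I barely so (nearest values 1501.61 and 1501.63 CPM). In complexes III, IV and V the squares of the genotypes overlap.

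Among the subunits that rose in replicates 1 and 2, the log2 fold changes were led by Cox6a2 (1.60) and Uqcrq (0.64). They were 0.46 for Ndufa1, 0.45 for Ndufa2, 0.43 for Ndufb7, 0.28 for Ndufs7, 0.25 for Ndufb11 and 0.25 for Ndufv2 in complex I. They were 0.28 for Sdhb in complex II, and 0.38 for Uqcr11 and 0.27 for Uqcrh in complex III. In complex IV they were 0.34 for Cox4i1, 0.30 for Ndufa4, 0.29 for Cox5a, 0.27 for Cox7b and 0.24 for Cox6a1. In complex V they were 0.48 for Atp5g1, 0.34 for Atp5e, 0.32 for Atp5h, 0.29 for Atp5j2 and 0.28 for Atp5g3. Core and accessory subunits were both among them. In complex I, 2 of 7 core subunits rose (28.6%), Ndufs7 and Ndufv2, and 4 of 29 accessory subunits (13.8%). Of all genes tested there 9.47% rose. The medians were 0.23 for core and 0.20 for accessory subunits. Sdhb is a core subunit of complex II. The core subunits Ndufs1 (-0.04), Sdha (-0.06), Atp5a1 (0.09) and Atp5b (0.10) did not pass the test in these libraries.

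Cox4i1, the common form of the largest nuclear subunit of cytochrome oxidase, had 155, 181, 137 and 129 CPM in Wfs1KO replicates 1 to 4, against 132, 129, 145 and 144 CPM in WT replicates 1 to 4. It was thus higher in Wfs1KO islets in replicates 1 and 2 (0.34, edgeR adjusted p = 0.0053) and lay at -0.13 in replicates 3 and 4, where it did not pass. Atp5e, the epsilon subunit at the foot of the catalytic head, had 69.5, 83.9, 62.0 and 55.1 CPM in Wfs1KO islets, against 59.5, 60.0, 65.6 and 72.3 CPM in WT islets. It stood at 0.34 in replicates 1 and 2 (edgeR adjusted p = 0.0111) and at -0.25 in replicates 3 and 4 (0.0766). The 2 genes that fell in replicates 3 and 4 were Ndufb8, an accessory subunit of complex I often used as its marker on blots, and Cox6c. Ndufb8 had 52.4 and 48.4 CPM in Wfs1KO replicates 3 and 4, against 64.0 and 65.9 CPM in WT replicates 3 and 4 (-0.38, edgeR adjusted p = 0.0064), and in replicates 1 and 2 its value was 0.04. Cox6c had 39.1 CPM in each of Wfs1KO replicates 3 and 4, against 47.1 and 47.9 CPM in WT replicates 3 and 4 (-0.29, edgeR adjusted p = 0.0262).

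**Figure D5:**
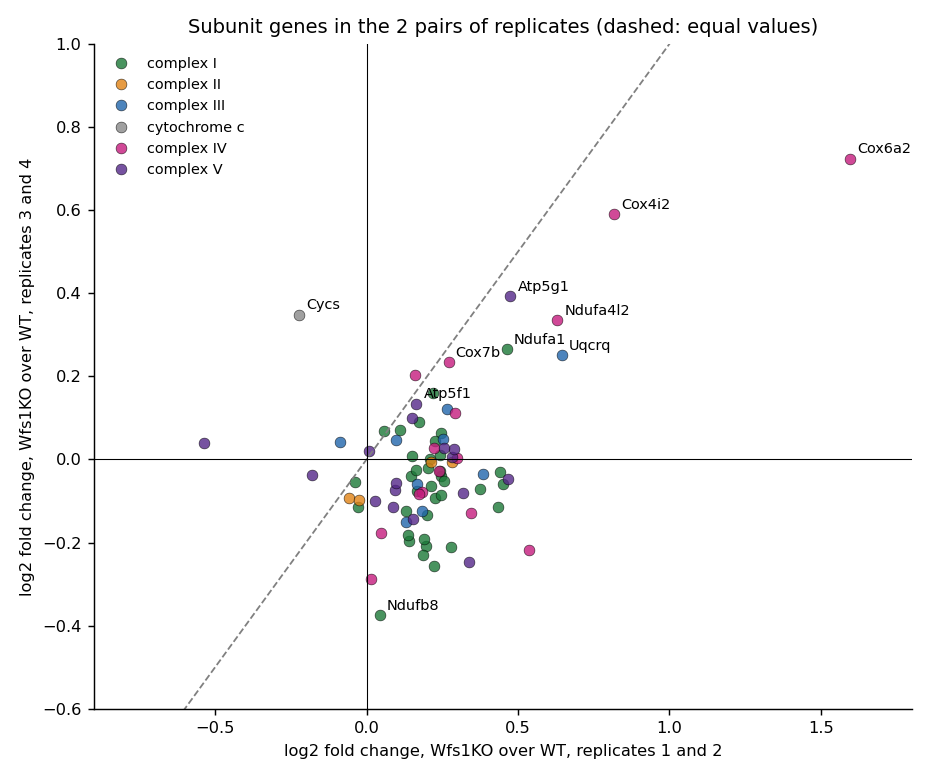
Log2 fold change of Wfs1KO over WT in replicates 1 and 2 (x axis) against that in replicates 3 and 4 (y axis) for the 82 subunit genes tested in both, coloured by complex; the dashed line marks equal values, and Cox7a1, tested in replicates 1 and 2 but not in 3 and 4, is left out. Most points lie to the right of 0 and below the dashed line, with Cox6a2 at 1.60 and 0.72 farthest out.

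The difference between the pairs of replicates was itself tested, as the effect in replicates 3 and 4 minus that in replicates 1 and 2. The estimate was below 0 for 78 of 83 members, 94.0% against 53.5% of all tested genes, and the median was -0.25 among members and -0.02 among all tested genes. All 36 complex I subunits were below 0. None of the 83 passed adjustment over all genes (edgeR, against a background of 0.0699% of genes with a lower and 0.0508% with a higher effect in replicates 3 and 4), and 36 had an unadjusted p under 0.05, all of them lower, which is 43.4% of members, against 1726 of all 15733 tested genes. DESeq2 called 2 of the 43 members it gave an adjusted p, 4.65% against 0.616% of all such genes. The smallest adjusted p, 0.0947, was shared by Cox4i1 (-0.49 ± 0.11 SE) and Atp5e (-0.60 ± 0.13 SE). Some genes called over all libraries had like log2 fold changes in both pairs. Cox7b had 0.27 in replicates 1 and 2 and 0.23 in replicates 3 and 4, Atp5g1 had 0.48 and 0.39, and Atp5f1 had 0.16 and 0.13.

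Transcript length moved with this difference. Subunit genes are short, with a median exon length of 737 bases among tested members against 2844 among all tested genes. Of 30 tested members of up to 600 bases all 30 were below 0 in the difference (median -0.30), and among all 370 tested genes of that length 258 were below 0 (median -0.19). Members over 1000 bases had a median difference of -0.20, against -0.01 for all tested genes of that length. In replicates 1 and 2 the median log2 fold change was 0.23 for the short members and 0.11 for all genes as short, and 0.14 and -0.00 for members and genes over 1000 bases. The exon share differed between the same libraries, as given above, and the part of length and of exon share in the difference was not tested. With the exon share as a covariate, 9 members rose over all 8 libraries.

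Promoters were searched for 3 motifs of factors known to bind promoters of respiratory chain genes, in windows from 250 bases before to 50 after the start, on both strands; none of the 3 words contains another. RefSeq windows (GRCm38.p6) were at hand for 68 of the 87 members. The core CCGGAAG of ETS factors such as GABPA was found in 16 of 68 members, 23.5% against 9.93% of all 27025 genes with a window. These genes were not limited to those tested in islets. The NRF1 core GCGCATGC was found in 11, 16.2% against 3.05%, and the YY1 core AAGATGGC in 9, 13.2% against 3.19%. The windows of 2 members called in replicates 1 and 2 are shown, 1 with and 1 without such a word, with ETS and NRF1 matches in capitals (the NRF1 match reads on the other strand).
Uqcr11 (chr10:80406772-80407071, minus strand): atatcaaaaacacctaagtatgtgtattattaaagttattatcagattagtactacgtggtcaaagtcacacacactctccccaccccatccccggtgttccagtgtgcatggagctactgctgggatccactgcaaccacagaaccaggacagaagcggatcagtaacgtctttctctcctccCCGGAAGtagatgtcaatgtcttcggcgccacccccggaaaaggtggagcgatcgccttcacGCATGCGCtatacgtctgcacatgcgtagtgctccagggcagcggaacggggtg
Cox7b (chrX:106015450-106015749, plus strand): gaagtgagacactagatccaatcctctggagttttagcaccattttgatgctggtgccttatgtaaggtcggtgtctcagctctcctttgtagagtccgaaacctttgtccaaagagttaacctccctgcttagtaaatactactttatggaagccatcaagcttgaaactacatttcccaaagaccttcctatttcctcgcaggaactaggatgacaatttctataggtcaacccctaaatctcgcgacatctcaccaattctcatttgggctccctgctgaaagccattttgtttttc
Members with any of the 3 motifs had a median log2 fold change of 0.21 in replicates 1 and 2, and 9 of 30 rose (30.0%). Members with none had a median of 0.20, and 8 of 35 tested rose (22.9%). Of all genes tested in these libraries 9.47% rose. Across all 8 libraries, edgeR called 0 of the 30 with a motif (median 0.09), with 2 at an unadjusted p under 0.05. Of the 35 with none, 3 rose (8.57%, median 0.12), and 12 had an unadjusted p under 0.05. The share of all tested genes that rose across the 8 libraries was 10.4%. A match is a run of letters, not a bound site.

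Genes that build or serve the chain were counted in the same way, against the 10.4% of all tested genes that rose and the 8.49% that fell. Of 15 complex I assembly factors 0 rose and 1 fell, Ndufaf6 (log2 fold change -0.48). Of 22 complex IV assembly factors 2 rose, Surf1 (0.26) and Cox19 (0.30), and 1 fell, Coa7 (-0.38). None of 10 assembly factors of complexes II and III and none of 6 of the ATP synthase was called by edgeR, with 1 and 0 at an unadjusted p under 0.05. Of 14 genes for electron inputs and carriers 1 rose and 4 fell over all libraries, 2 rose and 3 fell in replicates 1 and 2, and 0 rose and 2 fell in replicates 3 and 4. The largest change in these lists was that of Gpd2, the mitochondrial glycerol-3-phosphate dehydrogenase that brings electrons from cytosolic NADH to coenzyme Q, with 59.5 ± 5.19 CPM in Wfs1KO islets and 137 ± 16.7 CPM in WT islets (SD, n = 4 each; -1.20, edgeR adjusted p = 1.87e-06). Vdac1, the pore of the outer membrane, fell (-0.38) and Vdac3 rose (0.43), and Etfa fell (-0.24). Of 13 genes of coenzyme Q synthesis 1 fell, Coq8b (-0.43). Of 16 regulators of mitochondrial gene expression 2 rose, Pprc1 (0.22) and Tfb1m (0.31), and Ppargc1a, which encodes the coactivator PGC-1 alpha, fell to 4.37 ± 1.06 CPM in Wfs1KO islets, against 6.99 ± 1.26 CPM in WT islets (-0.66, edgeR adjusted p = 0.0216). Of these 16, 0 rose and 2 fell in replicates 1 and 2, and 0 rose and 1 fell in replicates 3 and 4.

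Ribosomal protein genes were set beside the subunits. Of all tested genes 10.4% rose and 8.49% fell over all libraries. The share that rose was 9.47% in replicates 1 and 2 and 6.35% in replicates 3 and 4. Of 78 tested cytosolic ribosomal protein genes 37 rose (47.4%) and 0 fell over all libraries, with a median log2 fold change of 0.26. In replicates 1 and 2 the count was 43 and the median 0.35, and in replicates 3 and 4 the count was 3 and the median 0.13. Of 78 mitochondrial ribosomal protein genes 5 rose (6.41%) and 0 fell over all libraries, with Mrps12 at 0.62. In replicates 1 and 2, 5 of 78 of these rose (median 0.13), and in replicates 3 and 4, 1 of 77 (median 0.03). Their median difference between the pairs of replicates was -0.13, against -0.23 for cytosolic ribosomal protein genes and -0.25 for respiratory chain subunits.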

How the data were processed

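Polyadenylated RNA of 4 Wfs1KO and 4 WT islet samples was sequenced with a NEBNext Ultra II kit from 200 ng of RNA, per the labels. The submitters' processing notes name bcl2fastq, STAR 2.6.0a, the mm10 build and HOMER 4.11.1. The deposited values are raw counts in exons of RefSeq genes with no normalization and no strand option, per the file headers. The authors also deposited their comparison (DESeq2, per the submitters' processing notes), whose log2 fold changes run Wfs1KO over WT, as tested against the counts, and unadjusted and adjusted p-values, per the file headers.

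Counts were tested with edgeR 4.0.16 under R 4.3.3 (filterByExpr by genotype with a minimum count of 10 and a minimum total of 15, TMM scaling, robust quasi-likelihood F-test) and Benjamini-Hochberg adjustment over all 15733 genes tested; a gene "rose" or "fell" where its adjusted p was under 0.05. Separate fits used replicates 1 and 2 and replicates 3 and 4, and the difference between them was an interaction term. SE is the absolute log2 fold change divided by the square root of F. The common biological coefficient of variation was 10.7%. The steps were tested on simulated data. Shares of paralogues were compared by exact permutation over libraries in scipy 1.17.1. Alternatives used DESeq2 1.42.0, limma 3.58.1, other scaling, filters and covariates, blocks, and each library left out in turn; the exon share as a covariate and permutation of shares within pairs were added after seeing the data.

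Replicate numbers are shared between the genotypes in the labels. Across genes, which are not independent replicates, deviations of same-numbered samples correlated at 0.153, 0.443, 0.269 and 0.188 for replicates 1 to 4. Of the 4 Wfs1KO samples, 2 correlated best with the WT sample of their own number. Wfs1KO replicate 1 correlated best with WT replicate 2, and Wfs1KO replicate 4 with WT replicate 3. The main tests used no pairing of samples. Pairing by number entered only as alternatives, in the replicate block and in the permutation within pairs. Named genes were every called member, the highest and lowest log2 fold change and the most abundant member of each complex, core subunits, paralogue families, members failing the filter and up to 4 called members of each other list; a gene that this rule takes is not reported here. The members and lists were chosen with earlier results of these data known.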

Additional observations from a re-analysis of the deposited data

Results flagged for a closer look

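Of 108 groups of 4 libraries examined among the named members and paralogue shares, 7 held 1 library far from the other 3, where chance gives about 1 in 20. Wfs1KO replicate 2 was the far library for Ndufa1 at 42.9 CPM and for Sdhb at 61.6 CPM, both above the other Wfs1KO libraries. Wfs1KO replicate 4 was the far library for Uqcrc2, a core protein of complex III, at 113.0 CPM. WT replicate 4 was the far library for Cox6a2, at 11.7 CPM and at a share of 9.55% of Cox6a RNA, the WT values nearest to those of Wfs1KO islets. WT replicate 3 was the far library for Cox7a1 at 0.54 CPM and for the share of Cox4i2 at 0.52%, both below the other WT libraries.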

How the results depend on the processing

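Over 8 libraries the number of members that rose was 6 and ranged from 5 to 9 over other tools, scalings, filters, covariates and blocks, and was 11 at an adjusted p under 0.1. It was 7 with the replicate block, which changed the calls of Atp5f1, Cox7a2l and Uqcrh. Leaving out 1 library gave 4 (without Wfs1KO replicate 1 or 2 or WT replicate 3) to 9 (without Wfs1KO replicate 4), and no setting gave a fallen member. In replicates 1 and 2, DESeq2 gave 7 risen members in place of 21, and leaving out 1 library gave 2 to 24. In replicates 3 and 4, DESeq2 gave 1 fallen member in place of 2, and leaving out 1 library gave 0 to 7 fallen and 0 to 2 risen. DESeq2 called 2 members with a smaller effect in replicates 3 and 4, in place of 0. The cause of these differences was not tested. Leaving out 1 library leaves a lone sample in a genotype of the fits of 4 libraries, which is assumed to vary like the other group. The mean of log2 CPM put complex II at 0.041 in place of -0.01. Without 1 library the shares differed by 0.99 to 1.32 percentage points for Atp5g1, 0.30 to 0.42 for Cox4i2 and 5.49 to 7.18 for Cox6a2, each at an exact permutation p of 0.0571, the smallest that 3 against 4 allows. With the replicate block, that is permutation within pairs, the differences of 1.15, 0.36 and 6.18 points had an exact p of 0.125, the smallest it allows. The sign turned only for uncalled members near 0. Ndufa6 was at 0.0066 with limma-voom, 0.0048 with the acinar covariate and 0.0049 with the exon share. Uqcrc1 was at 0.0019 with no filter, 0.0049 with the acinar covariate, 0.0049 with the replicate block and 0.0052 with the block of replicate pairs, and Uqcrc2 at 0.033 with the acinar covariate. Without 1 library, members that changed sign ran from -0.032 to 0.058 for Atp5a1, -0.046 to 0.148 for Atp5e, -0.00766 to 0.116 for Cox6b1, -0.00515 to 0.105 for Cox7a2, -0.056 to 0.156 for Cycs, -0.091 to 0.028 for Ndufa6, -0.030 to 0.136 for Ndufs7, -0.054 to 0.069 for Uqcrc1, -0.078 to 0.013 for Uqcrc2 and -0.028 to 0.106 for Uqcrfs1. Cox6a2 did not pass with no filter (adjusted p = 0.0539), nor Atp5f1 with DESeq2 size factors (0.0744), no filter (0.121), the 20 most abundant genes left out (0.0789) or the acinar covariate (0.113). Cycs, Atp5g2 and Cox7a1 had at most 26 reads per library, and their log2 fold changes had standard errors of 0.31 to 0.43.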
